A study of Danio rerio with 6 samples.

Results

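The genes described here encode carriers that move amino acids and amine transmitters across cell membranes. They were taken by symbol: every gene of the solute carrier families slc1a, slc3a, slc6a, slc7a, slc36a, slc38a and slc43a in the gene table, except 1 symbol that the rule leaves out. This gave 81 genes of 37685 in the table. Of these, 80 encode transporters or their subunits. The remaining one, slc7a6os, is named for lying opposite slc7a6 and is not described as a transporter, although its symbol matches the rule. A gene could have more than 1 row in the table, the further rows carrying its symbol with a numeric suffix. The rows of each gene were summed, which concerned 18 members.

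Amino acid carriers fall into families with different mechanisms. SLC7 light chains need a partner from the SLC3 family, the heavy chain, to reach the plasma membrane, and the pair exchanges one amino acid for another. SLC1 and SLC6 carriers use the sodium gradient; in brain they clear glutamate, GABA, glycine and monoamines from the synapse, and in gut and kidney SLC6 and SLC1 members take up dietary and filtered amino acids. SLC38 carriers move glutamine and other small neutral amino acids with sodium, and SLC36 carriers use protons. Of the SLC43 carriers, LAT3 and LAT4 pass large neutral amino acids such as leucine without sodium.

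Whole zebrafish larvae of the AB wild-type strain were compared at 72 hours post fertilization. The control group held 3 libraries labelled wild type; whether these larvae received any injection is not given in the labels. The knockdown group, GJB2-mo, held 3 libraries from AB embryos that had received, at the 1-cell stage, an antisense morpholino against GJB2, a connexin gene of the cochlea. No library with a control morpholino is named, so effects of injection and of the target cannot be told apart. The injected oligonucleotide, shown because it defines the group, is 25 bases long, and the capitals mark its single CAT, the complement of an ATG.
GJB2-MO: taaagtgctccccaactCATcctgt
The libraries held between 14582030 and 19743658 counts. The first principal component of log2 CPM (counts per 1000000 counts of the library, scaled by TMM), with 35.7% of the variance, separated the groups. The fish connexin gene gjb8, which may or may not be the intended target, was read 7, 8 and 11 times in control libraries, against 114, 14 and 16 times after injection (log2 fold change 2.29 ± 1.03 SE, adjusted p = 0.288), which does not check a block of translation. The sources do not say how many larvae a library pooled or whether clutches were separate. The p-values therefore reflect only how far these 6 libraries scatter, and that scatter could be technical.

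Of the transporter genes, 8 passed the test, 4 in each direction. The heavy chain gene slc3a2a, the LAT4 gene slc43a2b and the epithelial carrier gene slc6a19b were among those that rose. The second heavy chain gene slc3a2b, the LAT3 gene slc43a1a and the neutral amino acid carrier gene slc1a4 were among those that fell. A gene was called at a Benjamini-Hochberg adjusted p under 0.05 in edgeR's quasi-likelihood test fitted on all 22247 genes with enough counts. Of the 81 members, 79 had enough counts to be tested, and 8 of them (10.1%) were called. Over all genes tested, 6.19% were called, 2.88% higher and 3.31% lower. Members and lists were chosen with earlier results of these data known, so comparing such shares does not test them. At an unadjusted p under 0.05 there were 25 members (31.6%), against 21.7% of all genes. In 22 members (27.8%) the 3 GJB2-mo libraries lay wholly above or below the 3 controls, the same share as over all genes (27.8%). The median log2 fold change was 0.03 over the members and 0.01 over all genes, and 51 members moved by less than 0.25 on the log2 scale. Leaving out single libraries lowered the number of called members to between 2 and 6, as given for each gene described.

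**Figure D1:**
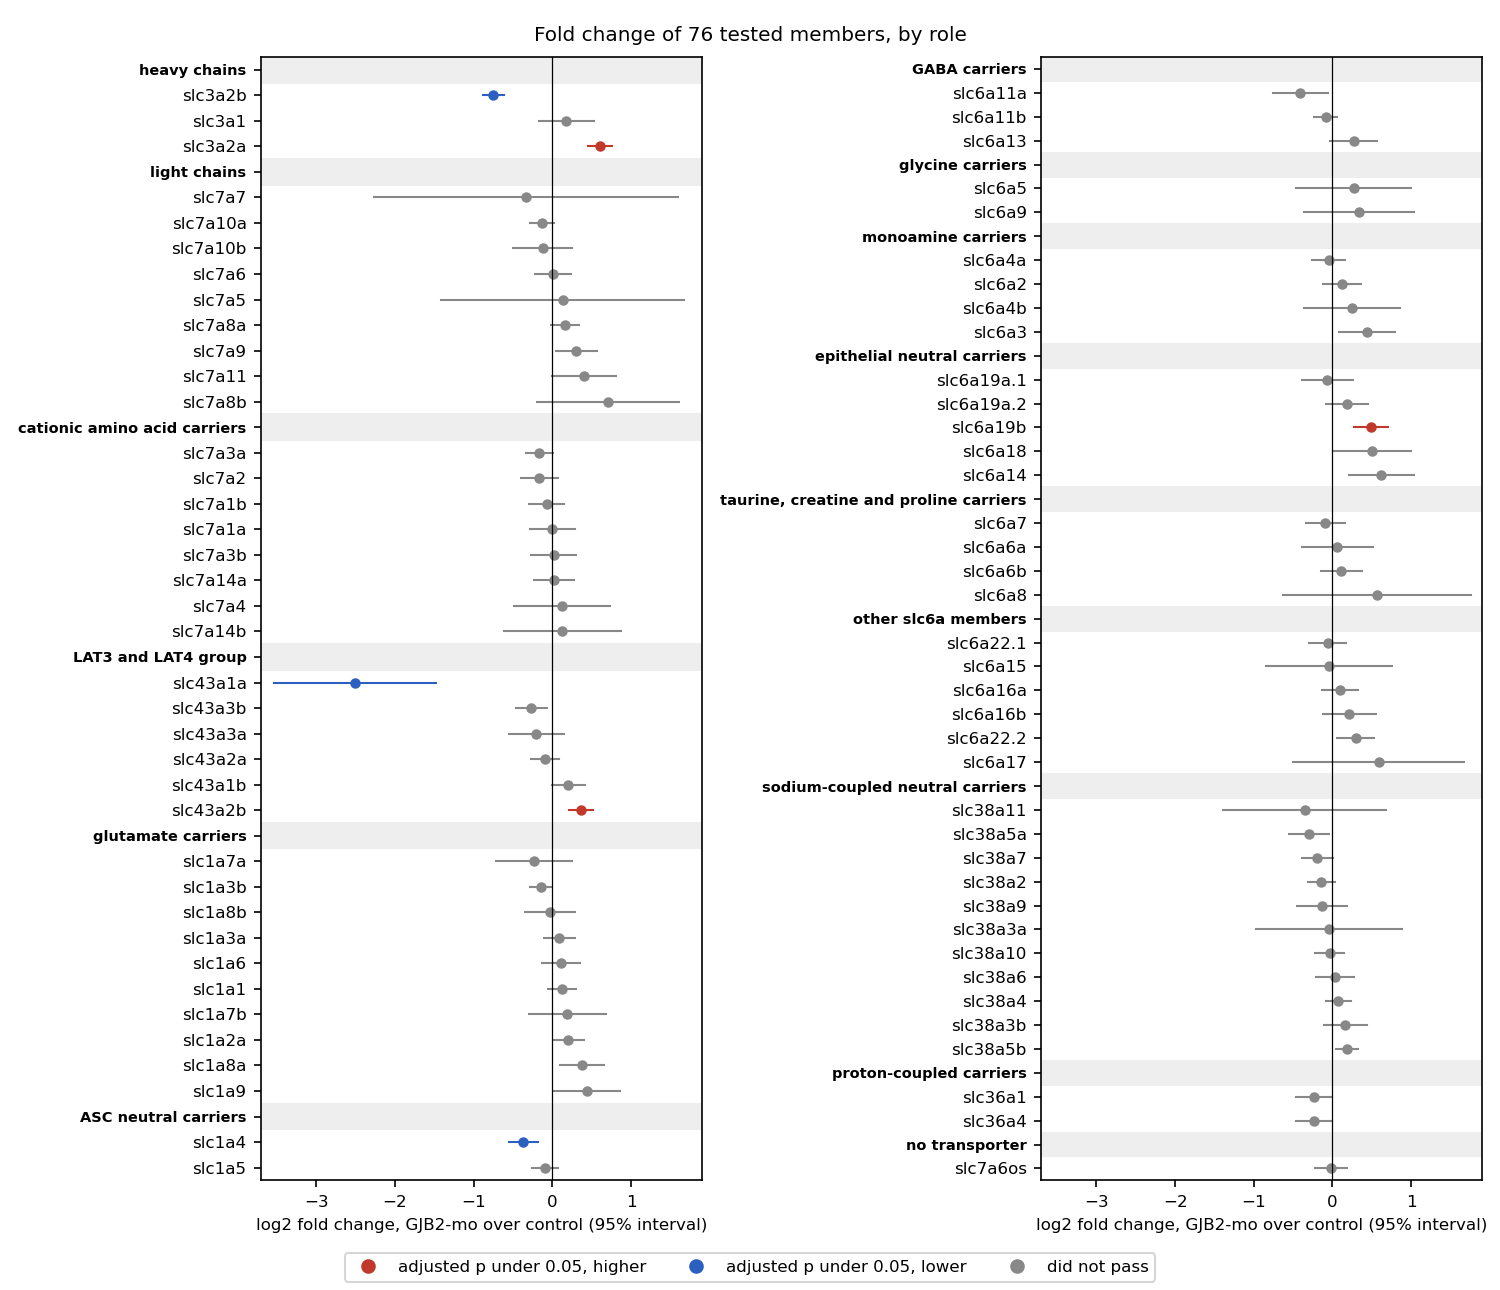
Log2 fold change (GJB2-mo over control, x axis) of 76 tested members, grouped by role. Dots are edgeR estimates, bars 95% intervals, and colour marks the call; slc43a1a at -2.51 lies farthest from 0.

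**Figure D2:**
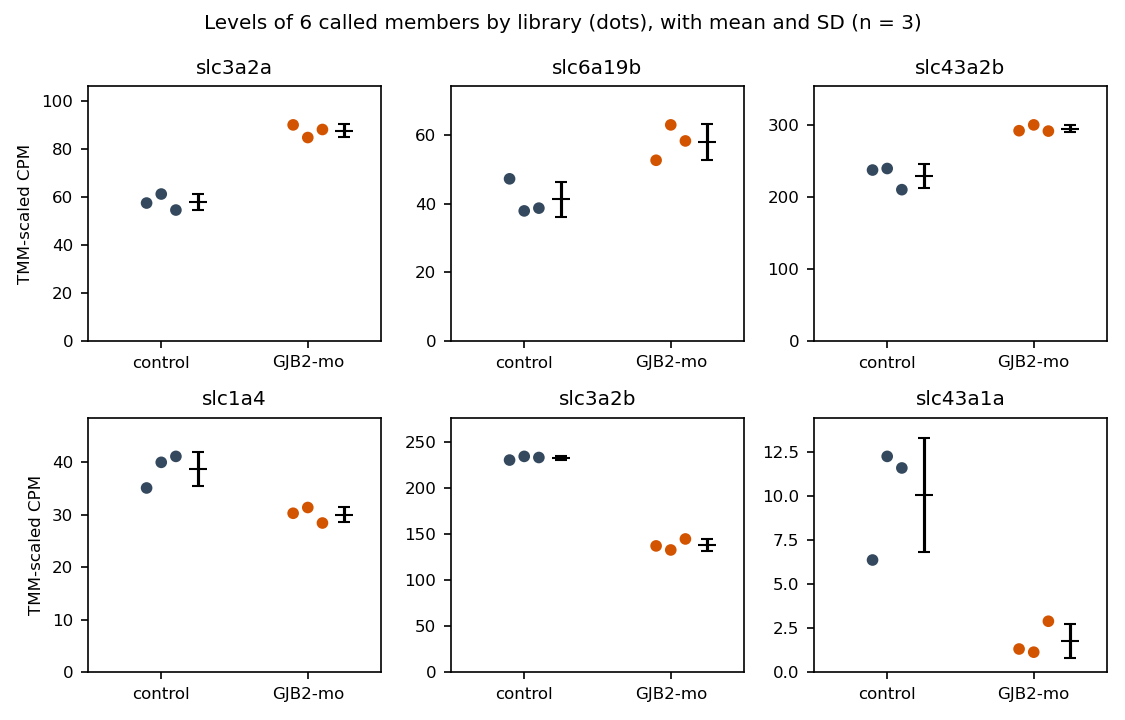
TMM-scaled CPM of 6 called members in each library, with the mean and SD of 3 libraries beside the dots. All y axes start at 0, and in none of these 6 genes do the groups overlap.

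The heavy chain pair gave the smallest p-values of all members and moved in opposite directions. slc3a2b (chromosome 21, 26721369 to 26725879, plus strand, GRCz11) encodes the 4F2 heavy chain, known in mammals as CD98. Its level was 231, 235 and 234 CPM in the controls and 137, 133 and 145 CPM in the GJB2-mo libraries. The controls lay within 4 CPM of each other, and every GJB2-mo library lay far below them. The gene fell by 0.75 ± 0.06 on the log2 scale, a 1.68-fold lower level (adjusted p = 1.2e-04). Its duplicate slc3a2a (chromosome 7, 20524068 to 20530447, plus strand) stood at 57.4, 61.1 and 54.5 CPM in the controls and at 89.9, 84.6 and 88.0 CPM in the GJB2-mo libraries. These coordinates are those of its first listed row that has them, while the levels sum 2 rows. The groups were again far apart, and the gene rose 1.52-fold (log2 fold change 0.60 ± 0.07, adjusted p = 8.4e-04). Both calls held without any single library.

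Set on a scale per transcript length, the deposited FPKM, the pair went from a share of slc3a2a of 19.6%, 20.3% and 18.6% in the controls to 39.1%, 38.4% and 37.3% in the GJB2-mo libraries. The summed level of both genes was 142 ± 2.76 FPKM in the controls and 110.0 ± 6.03 FPKM in the GJB2-mo libraries (SD, n = 3). With the 24652 rows tested as deposited, the called share was 8.31% (3.77% higher, 4.54% lower), and 23.3% had an unadjusted p under 0.05. The rise of slc3a2a lay in its second row. The row slc3a2a held 40.6, 41.1 and 40.6 CPM in the controls and 38.5, 41.2 and 43.2 CPM in the GJB2-mo libraries (log2 fold change 0.01 ± 0.07, adjusted p = 0.977 with rows as deposited). The row slc3a2a_1 held 16.7, 20.0 and 13.8 CPM, and then 51.4, 43.4 and 44.8 CPM (1.46 ± 0.13, adjusted p = 3.2e-04). The groups overlapped in the first row and were far apart in the second. The place of the second row is not given here, and whether its reads came from another locus was not tested. The third heavy chain gene, slc3a1, encodes rBAT, which pairs with the kidney and gut light chain and is mutated in human cystinuria. Its level was 8.51 ± 0.234 and 9.62 ± 1.97 CPM (adjusted p = 0.563). This sums 2 rows with changes of opposite sign. With rows as deposited, slc3a1 had 0.53 ± 0.26 and slc3a1_1 had -0.61 ± 0.41, and neither passed (adjusted p of 0.252 and 0.422).

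**Figure D3:**
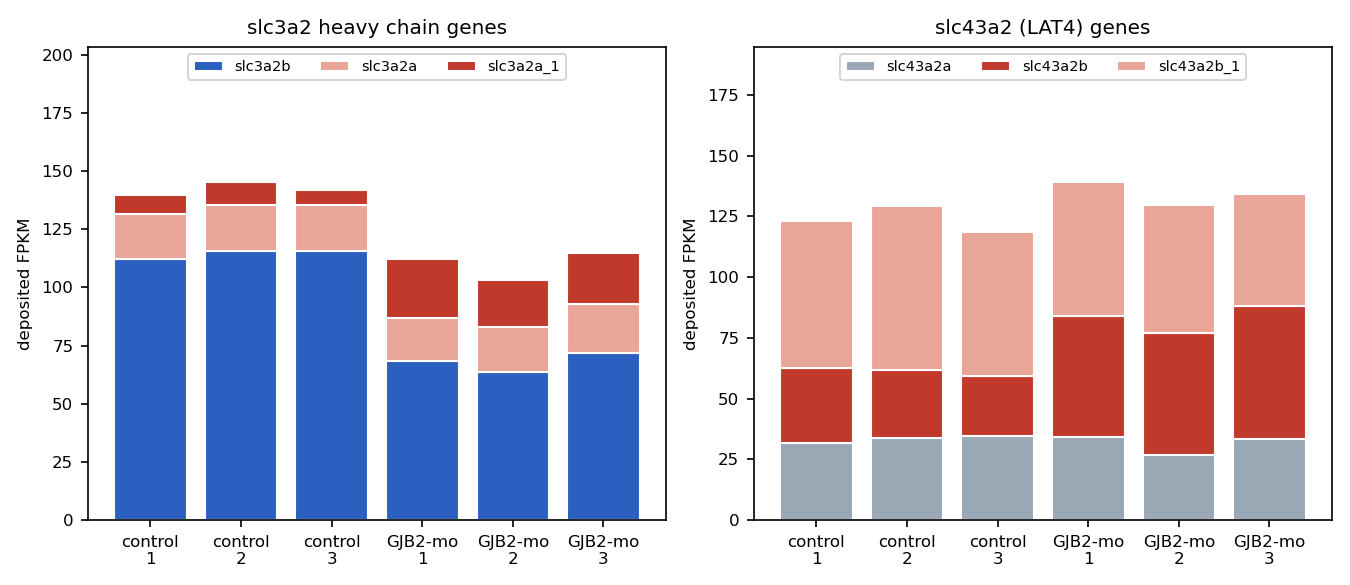
Deposited FPKM by library, stacked by gene and by row, for the slc3a2 genes (left) and the slc43a2 genes (right). The blue part, slc3a2b, is smaller in every GJB2-mo library, and the dark red part, slc3a2a_1, is larger. On the right the first row of slc43a2b is larger, its second row, slc43a2b_1, is smaller in every GJB2-mo library, and slc43a2a changes little.

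The light chains that these heavy chains carry did not pass the test. None of 9 light chain genes was called in edgeR or DESeq2, and 2 (22.2%, against 21.7% of all genes) had an unadjusted p under 0.05. slc7a8a, a LAT2 gene and the most abundant of them at 30.3 ± 1.11 FPKM in the controls, stood at 141, 141 and 131 CPM in the controls and 142, 173 and 148 CPM in the GJB2-mo libraries (0.16 ± 0.08, adjusted p = 0.273). slc7a11, the light chain of the cystine and glutamate exchanger xCT, had 4.91, 3.86 and 3.68 CPM and then 5.86, 4.90 and 5.73 CPM, values that overlap (0.41 ± 0.18, adjusted p = 0.229). slc7a9, the light chain partner of rBAT, lay between 15.6 and 18.5 CPM in the controls and between 18.6 and 24.0 CPM in the GJB2-mo libraries (0.31 ± 0.12, adjusted p = 0.160). The interval of its log2 fold change ran from 0.05 to 0.57.

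The light chain genes slc7a7 and slc7a5 differed more between libraries of a group than between groups. slc7a7, the y+LAT1 light chain whose human counterpart is mutated in lysinuric protein intolerance, held 22.1, 21.9 and 11.8 CPM in the controls and 4.48, 14.4 and 25.6 CPM in the GJB2-mo libraries. The highest and the lowest GJB2-mo library were 5.72-fold apart, so its fold change has a 95% interval from -2.27 to 1.60 on the log2 scale. slc7a5, the LAT1 light chain, held 4.36, 9.70 and 4.75 CPM and then 11.9, 3.96 and 4.73 CPM. Its high values came from 1 library in each group and from 1 row: the row slc7a5 held 12, 104 and 13 counts and then 147, 8 and 12, while slc7a5_1 held between 51 and 69 counts in every library. slc7a8b, a second LAT2 gene, had a mean of 0.780 and 1.27 CPM, too few counts for a precise fold (0.71 ± 0.41, adjusted p = 0.352). The light chain genes slc7a6, slc7a10a and slc7a10b had log2 fold changes of 0.01, -0.13 and -0.12.

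Genes grouped as cationic amino acid carriers held no call. The group is named for uptake of arginine and lysine, which need not hold for each of its genes. None of the 8 genes (slc7a1a, slc7a1b, slc7a2, slc7a3a, slc7a3b, slc7a4, slc7a14a and slc7a14b) was called in edgeR or DESeq2, and none had an unadjusted p under 0.05. Their log2 fold changes lay between -0.17 and 0.13. The most abundant by FPKM, slc7a3a, stood at 59.6, 66.7 and 57.2 CPM in the controls and 57.3, 52.8 and 53.2 CPM in the GJB2-mo libraries.

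Among the SLC43 carriers, 1 of 6 genes rose and 1 fell, against 2.88% and 3.31% of all genes tested. An unadjusted p under 0.05 was found for 4 (66.7%, against 21.7% of all genes), 2 in each direction. The groups lay wholly apart in 4 (66.7%, against 27.8% of all genes). slc43a1a (chromosome 14, 22076596 to 22098011, plus strand) is named for LAT3, a carrier that prefers leucine and other large neutral amino acids. Its counts were 92, 203 and 195 for the controls and 24, 22 and 46 after injection, or 6.37, 12.2 and 11.6 CPM against 1.33, 1.15 and 2.90 CPM. All 3 controls were above all 3 GJB2-mo libraries, and control 1 stood apart from the other controls. The gene fell by 2.51 ± 0.43 on the log2 scale, 5.68-fold, the largest change among the tested members (adjusted p = 0.0246). The call was lost without control 2 or 3 or GJB2-mo 1 or 2 (adjusted p between 0.0701 and 0.107), where the log2 fold change stayed between -2.39 and -2.26. Its duplicate slc43a1b lay between 26.9 and 27.6 CPM in the controls and between 27.6 and 34.2 CPM in the GJB2-mo libraries (0.21 ± 0.09, adjusted p = 0.228).

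slc43a2b (chromosome 10, 24372886 to 24391716, minus strand), a gene for LAT4, had the highest mean FPKM of the members over all 6 libraries (96.6), with 90.2 ± 5.86 FPKM in the controls, where slc3a2b was higher at 115 ± 1.88 FPKM. It held 238, 240 and 210 CPM in the controls and 292, 301 and 292 CPM in the GJB2-mo libraries, with no overlap. In counts summed over its rows the gene rose 1.29-fold (0.36 ± 0.07, adjusted p = 0.0119). The call was lost without control 3 (0.31 ± 0.07, adjusted p = 0.0570). On the length-scaled FPKM the difference was smaller, from 90.2 ± 5.86 in the controls to 103 ± 2.08 in the GJB2-mo libraries. Its rows did not move alike: the row slc43a2b went from 103 ± 11.2 to 190 ± 8.63 CPM (0.89 ± 0.08, adjusted p = 2.9e-04 with rows as deposited), and slc43a2b_1 from 127 ± 9.15 to 105 ± 10.2 CPM (-0.27 ± 0.09, adjusted p = 0.0855). Its duplicate slc43a2a stood at 103, 108 and 110 CPM and then at 108, 88.1 and 106 CPM (-0.09 ± 0.08, adjusted p = 0.589). slc43a3a and slc43a3b had log2 fold changes of -0.20 and -0.26 and did not pass.

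The SLC1 family held 1 call in 12 genes (8.33%, against 6.19% of all genes tested). slc1a4 (chromosome 13, 24431213 to 24447412, minus strand) encodes ASCT1, a carrier of serine, alanine and other small neutral amino acids that in brain supplies neurons with serine. Its level was 35.1, 40.0 and 41.1 CPM in the controls and 30.3, 31.4 and 28.4 CPM in the GJB2-mo libraries, without overlap. It fell by 0.37 ± 0.09 on the log2 scale, 1.29-fold (adjusted p = 0.0305). The call was lost without control 2 or 3 or GJB2-mo 1 or 3 (adjusted p between 0.0853 and 0.121). The related ASCT2 gene, slc1a5, which carries glutamine, had a log2 fold change of -0.09 ± 0.08 (adjusted p = 0.523).

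None of the 10 glutamate carrier genes of the family was called in edgeR or DESeq2. An unadjusted p under 0.05 was found for 4 (40%, against 21.7% of all genes), 3 of them with higher values. slc1a3a, a gene for the glial transporter GLAST and the member of the family with the most FPKM (30.2 ± 0.206 in the controls), stood at 63.9, 62.3 and 62.6 CPM and then at 58.0, 75.9 and 66.8 CPM (0.09 ± 0.09). Its duplicate slc1a3b was lower in every GJB2-mo library, at 85.8, 88.5 and 91.0 CPM against 81.1, 77.0 and 81.1 CPM, a small difference that did not pass (-0.15 ± 0.06, adjusted p = 0.187). slc1a8a, a fish member of the family, was higher in every GJB2-mo library (14.9 ± 2.57 and 19.3 ± 1.09 CPM, adjusted p = 0.112). slc1a9 held 4.98, 6.99 and 5.05 CPM and then 6.91, 9.28 and 6.93 CPM (0.44 ± 0.19, adjusted p = 0.207). The remaining glutamate carrier genes had log2 fold changes between -0.23 and 0.21.

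Among SLC6 genes for GABA carriers, which end inhibitory signals by clearing GABA, slc6a11b, a GAT-3 gene, stood at 175 ± 1.46 CPM in the controls and 165 ± 11.1 CPM in the GJB2-mo libraries (adjusted p = 0.499). slc6a11a and slc6a13 had log2 fold changes of -0.41 and 0.27 and did not pass.

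Carriers of glycine and monoamines did not pass the test. slc6a5 and slc6a9 encode the neuronal and the glial glycine transporter. slc6a5 held 5.67, 5.61 and 6.41 CPM in the controls and 8.62, 9.02 and 3.65 CPM in the GJB2-mo libraries, nearly all in its second row. slc6a9 held 16.4, 10.9 and 21.1 CPM and then 23.0, 15.7 and 22.7 CPM, with groups that overlap. Of 4 monoamine carrier genes none was called in edgeR or DESeq2, and 1 (25%, against 21.7% of all genes) had an unadjusted p under 0.05. This was the dopamine transporter gene slc6a3, at 6.78, 8.14 and 6.71 CPM and then at 9.39, 11.6 and 8.26 CPM, higher in every GJB2-mo library (0.44 ± 0.16, adjusted p = 0.142). The noradrenaline transporter gene slc6a2 had a log2 fold change of 0.12 ± 0.11, and the serotonin transporter genes slc6a4a and slc6a4b of -0.05 ± 0.10 and 0.25 ± 0.28. Neuron markers summed to between 1671 and 1773 CPM in the controls and between 1621 and 1869 CPM in the GJB2-mo libraries, and of 18 tested none rose and 1 fell (stmn2b), a call lost without control 2, control 3 or GJB2-mo 1. In whole larvae, fewer cells of a type and less RNA per cell cannot be told apart.

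The epithelial SLC6 carriers take up neutral amino acids at the brush border of gut and kidney tubule in mammals. Of 5 genes 1 rose (20%, against 2.88% of all genes tested). An unadjusted p under 0.05 was found for 3 (60%, against 21.7% of all genes), all with higher values. slc6a19b (chromosome 16, 18974074 to 18998549, plus strand), a gene for B0AT1, stood at 47.2, 37.9 and 38.7 CPM in the controls and 52.6, 62.9 and 58.2 CPM in the GJB2-mo libraries. The groups did not overlap, and the gene rose 1.41-fold (0.49 ± 0.10, adjusted p = 0.0174). The call was lost without control 2 or 3 or GJB2-mo 3 (adjusted p between 0.0674 and 0.0779).

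The tandem copies slc6a19a.1 and slc6a19a.2 stood at 27.3 ± 5.84 and 26.0 ± 1.21 CPM and at 127 ± 14.9 and 144 ± 19.9 CPM (log2 fold changes -0.07 and 0.18), and reads could be shared between them. slc6a14, a broad-range carrier of neutral and cationic amino acids, was higher in every GJB2-mo library, at 3.32, 3.13 and 4.04 CPM against 4.86, 6.04 and 5.23 CPM (0.62 ± 0.19, adjusted p = 0.0799). slc6a18, next to the slc6a19a copies, stood at 6.79 ± 1.52 and 9.63 ± 2.49 CPM (0.51 ± 0.22, adjusted p = 0.225). Intestine markers summed to between 2667 and 2804 CPM in the controls and between 2895 and 3295 CPM in the GJB2-mo libraries. Of 17 intestine markers tested 2 rose (tm4sf5 and ada), 15 did not pass, and none of those in the table was at 0. DESeq2 and the fit without control 1 also called rbp2a higher, and rows as deposited added rbp2a and apoa1a. Without control 2, control 3 or GJB2-mo 3 none of the intestine markers was called. Pronephros tubule markers summed to between 1365 and 1578 CPM and between 1486 and 1689 CPM, with none of 17 called higher in the main edgeR fit and 1 lower (aqp8b). DESeq2, the replicate block and the fit without GJB2-mo 2 each called trpm7 higher, and aqp8b was lost without control 1, control 3 or GJB2-mo 2. Their part in the result for slc6a19b was not tested.

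Of the carriers of taurine, creatine and proline (slc6a6a, slc6a6b, slc6a8 and slc6a7) none was called in the main edgeR fit or DESeq2, and none had an unadjusted p under 0.05. The creatine transporter gene slc6a8 held 9.83, 4.16 and 9.68 CPM in the controls and 14.7, 6.88 and 13.4 CPM in the GJB2-mo libraries. The library numbered 2 was the lowest in both groups (0.56 ± 0.46, adjusted p = 0.561). With the replicate number as a block its adjusted p was 0.0317, although the numbers share nothing that the labels name. slc6a17, a gene for a synaptic vesicle carrier of neutral amino acids, also had its lowest level in the library numbered 2 of each group, at 8.24, 2.53 and 5.17 CPM and then 8.95, 5.89 and 9.01 CPM (0.59 ± 0.44, adjusted p = 0.512). With rows as deposited, the row slc6a17 had 1.07 ± 0.37 and slc6a17_1 had -0.11 ± 0.43, and neither passed (adjusted p of 0.123 and 0.909). The other 5 SLC6 genes, slc6a15, slc6a16a, slc6a16b, slc6a22.1 and slc6a22.2, had log2 fold changes between -0.06 and 0.29 and did not pass.

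Sodium-coupled SLC38 carriers and proton-coupled SLC36 carriers had no call in the main edgeR fit or DESeq2. Of 11 SLC38 genes tested 2 (18.2%, against 21.7% of all genes) had an unadjusted p under 0.05, 1 in each direction. slc38a5b, a carrier of glutamine and serine and the family's most abundant gene at 60.3 ± 1.91 FPKM in the controls, held 170, 162 and 157 CPM and then 178, 194 and 181 CPM (0.18 ± 0.06, adjusted p = 0.131). Every GJB2-mo library was above the controls, while its duplicate slc38a5a was below them in every GJB2-mo library (-0.30 ± 0.11, adjusted p = 0.153). slc38a2, a SNAT2 gene that in mammals responds to amino acid shortage, had a log2 fold change of -0.14 ± 0.08. slc38a9, a lysosomal carrier that in mammals reports arginine to mTORC1, had -0.13 ± 0.14.

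The remaining 2 SLC38 genes had too few counts to be tested. slc38a8b was read 8, 14 and 16 times in control libraries and 0, 9 and 1 times after injection, all in its second row. It was called lower only without GJB2-mo 2. slc38a8a held between 0 and 5 counts in every library. Both SLC36 genes, slc36a1 and slc36a4, were lower in every GJB2-mo library, at 17.8 ± 1.36 against 15.1 ± 0.579 CPM and at 21.5 ± 2.38 against 18.2 ± 1.00 CPM, with log2 fold changes of -0.24 each (adjusted p of 0.199 and 0.217). Both had an unadjusted p under 0.05 in edgeR (0.0377 and 0.0444), as did 21.7% of all genes. slc7a6os stood at 66.7 ± 1.76 and 66.0 ± 9.27 CPM (-0.02 ± 0.09). It lies next to slc7a6 on the other strand, and it is not given whether the counting kept strand.

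Duplicated members could be compared as pairs. In 18 pairs of an a and a b gene with both copies tested, the log2 fold changes had opposite signs in 10. The ratio of the a to the b copy, taken within each library, lay wholly apart between the groups in 7 pairs. Among single genes, the groups lay wholly apart in 27.8% of all genes tested. The share over other pairs of copies was not computed, so the count of 7 has no direct reference. The ratio rose most for slc3a2a over slc3a2b, by 1.35 on the log2 scale, and dropped by 2.76 for slc43a1a over slc43a1b and by 0.46 for slc43a2a over slc43a2b. The exact two-sided permutation test on each ratio gave p = 0.1 for these 7 pairs, the smallest value that 3 against 3 libraries allow, and 0.257 adjusted over the 18 pairs, so no pair could pass.

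**Figure D4:**
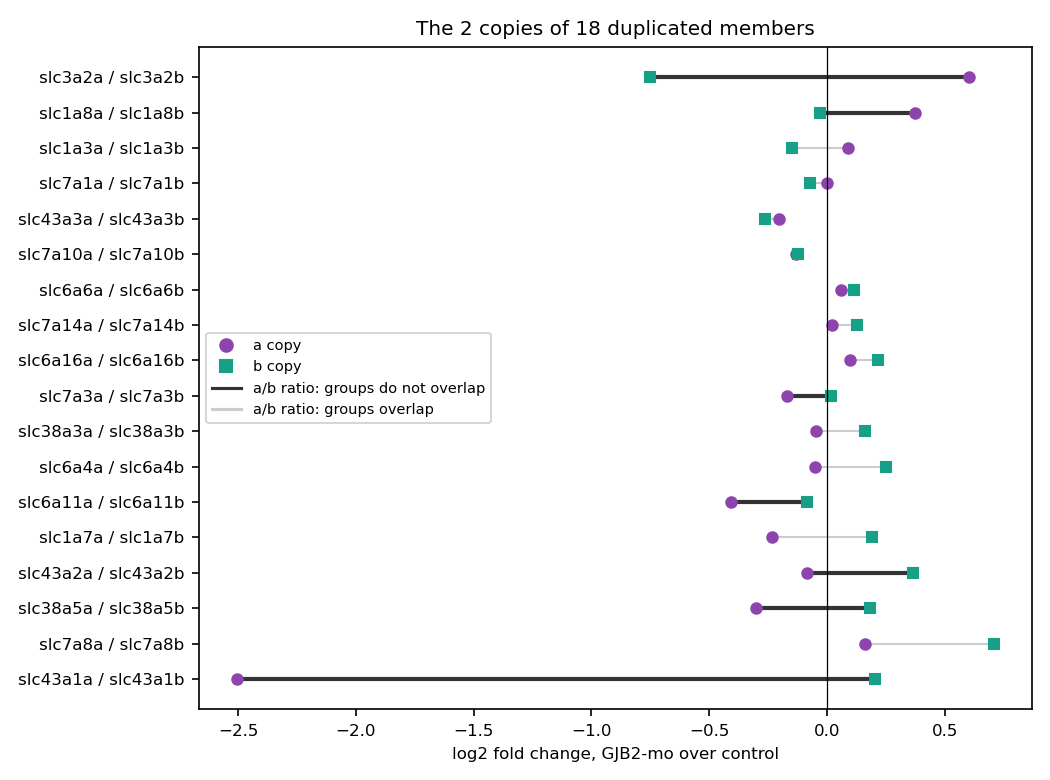
Log2 fold change (GJB2-mo over control, x axis) of the a copy (circle) and the b copy (square) in 18 duplicated pairs. Dark lines mark the 7 pairs whose a to b ratio did not overlap between groups; the widest are slc43a1a with slc43a1b and slc3a2a with slc3a2b.

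Some members also lie near each other on the genome. A gene with several rows was placed by its first listed row with coordinates. In all, 10 pairs of tested members lay within 200 kb of each other on a chromosome in the deposited GRCz11 coordinates, and in 8 of them the log2 fold changes had opposite signs, in some by values close to 0. slc43a2b, which rose, lies 54.0 kb from slc7a1a, whose log2 fold change was 0.00 ± 0.13. On chromosome 4, slc38a4 and slc38a2 are 33.7 kb apart and had log2 fold changes of 0.08 and -0.14. The tandem genes slc6a22.1 and slc6a22.2 on chromosome 6 had -0.06 and 0.29.

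Cells short of amino acids are known to activate ATF4, which in mammals raises genes of amino acid synthesis and of carriers such as SLC7A11 and SLC3A2. Of 31 genes of this response 2 rose and 5 fell, against 2.88% and 3.31% of all genes tested. The list was chosen with earlier results of these data known, so this comparison is no test of it. The glutathione-degrading enzyme gene chac1 fell from 346 ± 20.6 to 265 ± 6.49 CPM (-0.38 ± 0.07, adjusted p = 0.00755). The asparagine synthetase gene asns held 28.1, 30.4 and 35.6 CPM in the controls and 20.3, 20.6 and 22.9 CPM in the GJB2-mo libraries, and fell by 0.56 ± 0.10 (adjusted p = 0.00993). ddit4, an inhibitor of mTORC1 signalling, fell by 0.42 ± 0.11 (adjusted p = 0.0406), and nupr1a, a stress-induced chromatin protein gene, rose by 0.36 ± 0.07 (adjusted p = 0.0175). The remaining calls were psat1 and pycr1b, lower, and nupr1b, higher. atf4a itself had a log2 fold change of 0.06 ± 0.07. Without any single library 2 or 3 genes fell and 0 or 1 rose, and asns and chac1 fell in each of the 6 fits. The call of nupr1a held in 4 of these fits, and those of ddit4 and psat1 in 1 each. Those of nupr1b and pycr1b held in none, and pycr1b was also not called in DESeq2.

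**Figure D5:**
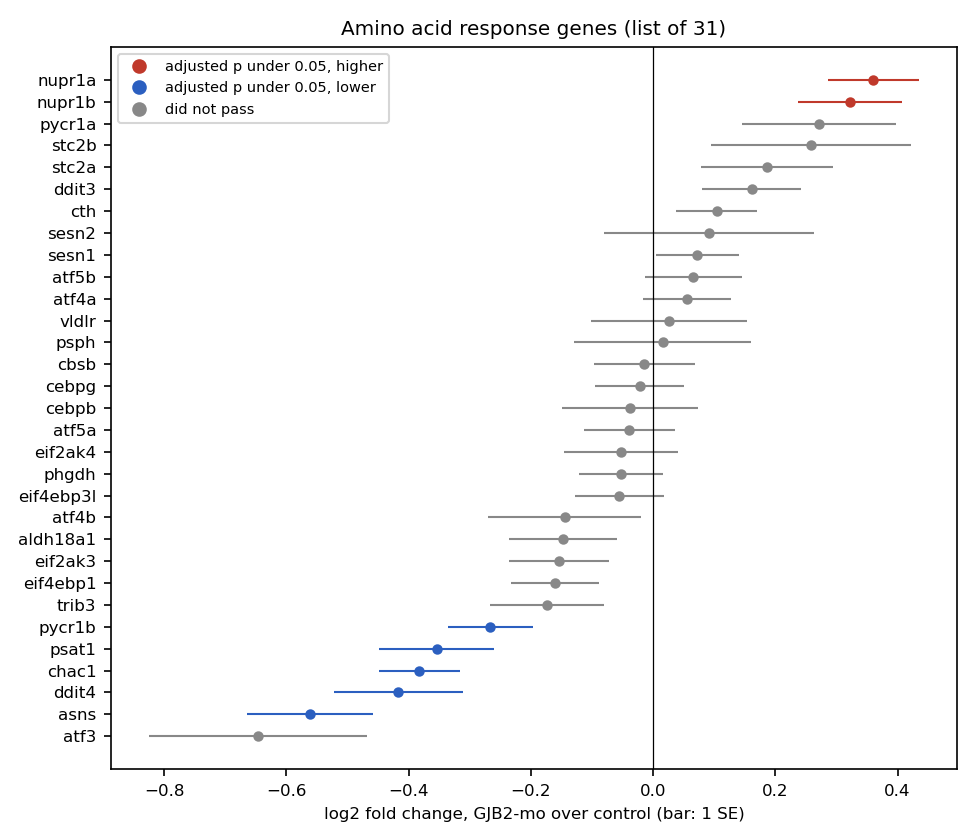
Log2 fold change (GJB2-mo over control, x axis) of 31 amino acid response genes; bars are 1 SE and colour marks the call. The 5 genes called lower lie between -0.56 and -0.27, and atf3, at -0.65 with a wider error, did not pass (adjusted p = 0.0569).

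Of 21 further carriers of amino acids, peptides, carnitine, choline and chloride tested, 1 rose and 2 fell. Over all genes tested, the shares were 2.88% and 3.31%. DESeq2 and the fit without control 1 also called the peptide transporter gene slc15a1a higher, and the replicate block called slc12a5b higher. The peptide transporter gene slc15a2 held 14.4, 12.1 and 13.5 CPM in the controls and 22.4, 22.0 and 23.8 CPM in the GJB2-mo libraries. It rose 1.71-fold (0.77 ± 0.10, adjusted p = 0.00173), also without any single library. The lysosomal carrier gene slc66a1 fell by 0.35 ± 0.09 and the carnitine transporter gene slc22a5 by 1.57 ± 0.41, and neither passed without any one library or in DESeq2. Of 30 genes that make or break down transmitters, the monoamine oxidase gene mao rose by 0.31 ± 0.07 and the proline dehydrogenase gene prodha by 0.42 ± 0.09. None of the 30 fell in the main edgeR fit. DESeq2, the replicate block and the fit without control 3 each called amt lower, and both higher calls were lost without control 2, control 3 or GJB2-mo 3, and that of mao also without GJB2-mo 1. Among 12 genes for loading synaptic vesicles none was called in the main edgeR fit, and 2 had an unadjusted p under 0.05. DESeq2 and edgeR with upper-quartile scaling each called 1 higher (sv2a). Among 32 genes of amino acid sensing by mTORC1, slc38a9 included, none was called in the main edgeR fit or DESeq2, and 2 had an unadjusted p under 0.05. Without control 2, tsc1b was called lower. Over all genes, 21.7% had an unadjusted p under 0.05. The median log2 fold changes of the vesicle and the sensing list were 0.01 and -0.01. Another 5 tested genes that the table describes as carriers of these types, with symbols outside the rule, held no call.

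Markers of the tissues of a whole larva were detected for every type listed, and no marker found in the table was at 0 in all libraries. Over all genes tested, 2.88% were called higher and 3.31% lower. These shares are set beside each marker count, also those of neuron, intestine and pronephros. The lists were chosen with earlier results of these data known, so the shares are no test of a list. Beside the neuron, intestine and pronephros markers, glia markers summed to between 1868 and 1908 CPM in the controls and between 1880 and 1948 CPM in the GJB2-mo libraries. Of 18 tested 2 were higher and 1 (fabp7a) lower. The higher calls numbered 1 without control 1 and 0 without any other library or with the replicate block. The call of fabp7a held without any single library, in DESeq2 and with the replicate block. The glia list holds the member slc1a3b. Liver markers summed to between 6263 and 6575 CPM and between 6614 and 6930 CPM, with 1 of 14 higher (serpina1). DESeq2 also called cfb and gc higher, and the replicate block gc. No liver marker was called without control 2, control 3 or GJB2-mo 3. Without control 1 serpina1 was lost and ttr was called higher. Skin and ionocyte markers summed to between 18213 and 19203 CPM and between 20123 and 24198 CPM, with 3 of 15 higher (cyt1, krt17 and krt91). With 1 library left out 2 or 3 were higher, and without control 1 slc4a4b was called lower. DESeq2 called 4 of these markers higher and 1 lower. Retina markers summed to between 4443 and 5163 CPM and between 4221 and 4664 CPM, with 6 of 15 lower. That count was 3 without control 1, 2 without control 2 and 4 or 5 without each other library. Pigment cell markers summed to between 378 and 425 CPM in the controls and between 303 and 326 CPM in the GJB2-mo libraries, without overlap. The sums of the intestine, the liver, and the skin and ionocyte markers did not overlap either, and were higher in the GJB2-mo libraries. No reference for such sums was computed. Of 14 pigment cell markers tested 3 were lower and 1 higher. With 1 library left out, 2 to 5 were lower, and the higher call held only without control 1. Yolk and macrophage markers summed to between 4471 and 4799 CPM and between 4647 and 5229 CPM. Of 11 tested 3 were higher, 1 without control 2 and 2 or 3 without each other library. Muscle markers summed to between 67047.5 and 72901.2 CPM and between 66092.1 and 67739.9 CPM. None of 15 muscle markers was called in the main edgeR fit. An unadjusted p under 0.05 was found for 5, none of them higher, against 21.7% of all genes. DESeq2 called 4 lower (acta1b, actc1b, ckma and myl1). In edgeR, myl1 was called lower without the count filter and with rows as deposited. Without control 3 ckma was called lower, and without GJB2-mo 2 acta1b and myl1 were. Which of these tissues the changed carriers come from was not tested.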

How the data were processed

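Poly-A RNA of 6 libraries was measured, 3 control and 3 GJB2-mo. The deposited table gives read counts per row, not normalized, FPKM deposited by the authors (scaled for length and depth) and TPM deposited by the authors (not used further). Per the submitters' processing notes, HISAT2, StringTie 1.3.1, RSEM and the GRCz11 build were used, with no role given. Coordinates were taken as 1-based closed intervals, since neighbouring mitochondrial genes abut in them without overlap. For a gene with several rows they are those of its first listed row that has them. Every per-library column belonged to these libraries.

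Rows of a symbol were summed (53709 rows, 37685 genes). edgeR 4.0.16 in R 4.3.3 kept 22247 genes with filterByExpr (min.count 10, min.total.count 15) and TMM scaling, fitted a robust quasi-likelihood model without covariates on all 6 libraries and adjusted p-values over all genes. The SE is the fold change divided by the root of F. The fitting code was tested on simulated data. DESeq2 1.42.0, other scalings and filters, unsummed rows, a replicate block and leaving out each library were alternatives. Ratios of copies used SciPy 1.17.1.

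The members and lists were chosen with earlier results of these data known. Genes named are called members, the most abundant per family by FPKM, the 6 largest uncalled changes at 1 CPM or more, partner and transmitter carriers, members with a called row, and called list genes; a few others complete a group. No replicates were identical. Results for a few members, which stay in the fit and in the counts, are not reported here.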

Additional observations from a re-analysis of the deposited data

How the results depend on the processing

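The 8 calls were 4 higher and 4 lower. Higher and lower called members numbered 4 and 3 with upper-quartile scaling, in DESeq2 and with at least 50 counts in 3 libraries. They numbered 5 and 3 with the replicate block, which adds slc6a8. With rows as deposited they numbered 3 and 4, counting only rows whose name has no suffix. The row slc3a2a_1, called higher (1.46 ± 0.13, adjusted p = 3.2e-04 in edgeR), was therefore not counted. Over all genes, same-numbered libraries did not deviate together (r between -0.03 and 0.05). The labels name no pairing, and none was assumed. A correlation over 3 libraries per group cannot show whether they shared a clutch or batch, which was not tested. Leaving out 1 library gave 1 to 3 higher members and 1 to 3 lower, and over all genes 272 to 477 higher (641 with all libraries) and 307 to 593 lower (737). Rows as deposited gave 930 rows higher and 1119 lower, where the slc3a2a row was 0.01. Of 361 values for 28 named genes, 339 kept direction and side of the threshold, 13 lost a call, 1 gained one and 8 changed sign. The lost calls include slc3a2a with rows as deposited, where only its first row was read. The sign changes were in genes called under none of these alternatives: with 1 library left out, slc1a3a ranged from -0.013 to 0.18, slc6a4a from -0.13 to 0.012, slc7a5 from -0.53 to 0.59, slc7a6os from -0.14 to 0.062 and slc7a7 from -0.97 to 0.10. The median of all genes was 0.01 with TMM and 0.02 with upper-quartile scaling. With 3 libraries per group, small differences in genes of few counts could not be detected.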
